A study of Mus musculus with 3 samples.

Results

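Axon guidance ligands and receptors were taken here as all counted genes whose symbols belong to the semaphorin, plexin, Eph, ephrin, Slit, Robo, netrin (Ntn) and Unc5 families. There were 65 such genes among 17992 counted symbols, 34 ligands and 31 receptors, and all 65 had a mean of at least 1 CPM (counts scaled to the library total) over the libraries. RNA came from the brains of adult wild-type C57BL/6 mice in 3 groups, with 1 library each: sham, the vehicle group (a model in which the middle cerebral artery was occluded) and AGNHW. AGNHW, a preparation from Chinese medicine (Angong Niuhuang Wan), was given at 3 mg per g per day, and the labels do not repeat the occlusion for that group. The labels mark the sham and vehicle groups as untreated, and the brain region, the time after occlusion and the number of mice behind a library are not stated in the sources at hand.

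These proteins steer growing axons and, in the adult brain, remain on neurons, glia and vessels, where they act on synapses, on regrowth after injury and on vessel growth. Secreted and membrane-bound ligands bind receptors on the growth cone, and the receptors act on the cytoskeleton through small GTPases, so that the axon turns away from or towards the source. Semaphorins signal through plexins, often with neuropilins as co-receptors. Ephrins bind Eph receptor tyrosine kinases at cell contacts, Slits bind Robo receptors, and netrins bind Dcc and the Unc5 receptors, the latter mostly for repulsion.

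Sequencing gave 18286151 counts for sham, 15718594 for vehicle and 18184691 for AGNHW. Levels are CPM scaled with TMM, the trimmed mean of M-values, which sets most genes to a common level. A gene is called higher or lower where its ratio was at least 1.5-fold, its mean was at least 1 CPM and the 95% exact counting interval of the ratio, given in parentheses after each fold, excluded 1. With 1 library per group no difference has a replicate check, the conditions were not tested, and every statement compares these libraries. In whole tissue, fewer cells of a type and less RNA per cell cannot be told apart.

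Between vehicle and sham, 15 of the 65 genes were lower and 0 higher, that is 23.1% of them, where 14.2% of 15558 measured genes were lower and 8.66% higher. The 15 comprised 6 ligands (Sema3a, Sema3d, Sema3e, Sema6d, Efnb2 and Slit2) and 9 receptors (Plxnc1, Epha3, Epha4, Epha5, Robo1, Robo2, Robo3, Unc5c and Unc5d). Of all genes past the rule, 37.9% were higher with TMM and 23.9% with plain CPM, while the count of 15 was the same with both. The median log2 ratio over the 65 genes was -0.08 and over all measured genes 0.01. These medians are not matched for the GC content of the transcripts, with a median of 56.2% for the 65 genes and 50.4% for all measured genes. The sum over all 65 genes was 3096 (sham), 3060 (vehicle) and 3122 CPM (AGNHW).

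Between AGNHW and vehicle, 2 of the 65 genes were higher (Epha3 and Robo1) and 0 lower, where 4.01% of all measured genes were higher and 2.56% lower. With plain CPM the count of higher members was 5, with Sema3a, Sema6d and Efnb2 added, against 5.19% of all genes, and among all genes past the rule 72.3% were higher in place of 61.1%. Between AGNHW and sham, 1 was higher (Ntn5) and 5 were lower (Sema3d, Slit2, Epha5, Robo3 and Unc5c), against 3.32% and 5.47% of all measured genes. The median log2 ratio of the 65 was 0.07 and -0.02 in these comparisons, and that of all measured genes was 0.00 in both. Each pair of comparisons shares a library, so a low value in vehicle lowers its ratio to sham and raises that of AGNHW to vehicle.

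**Figure D1:**
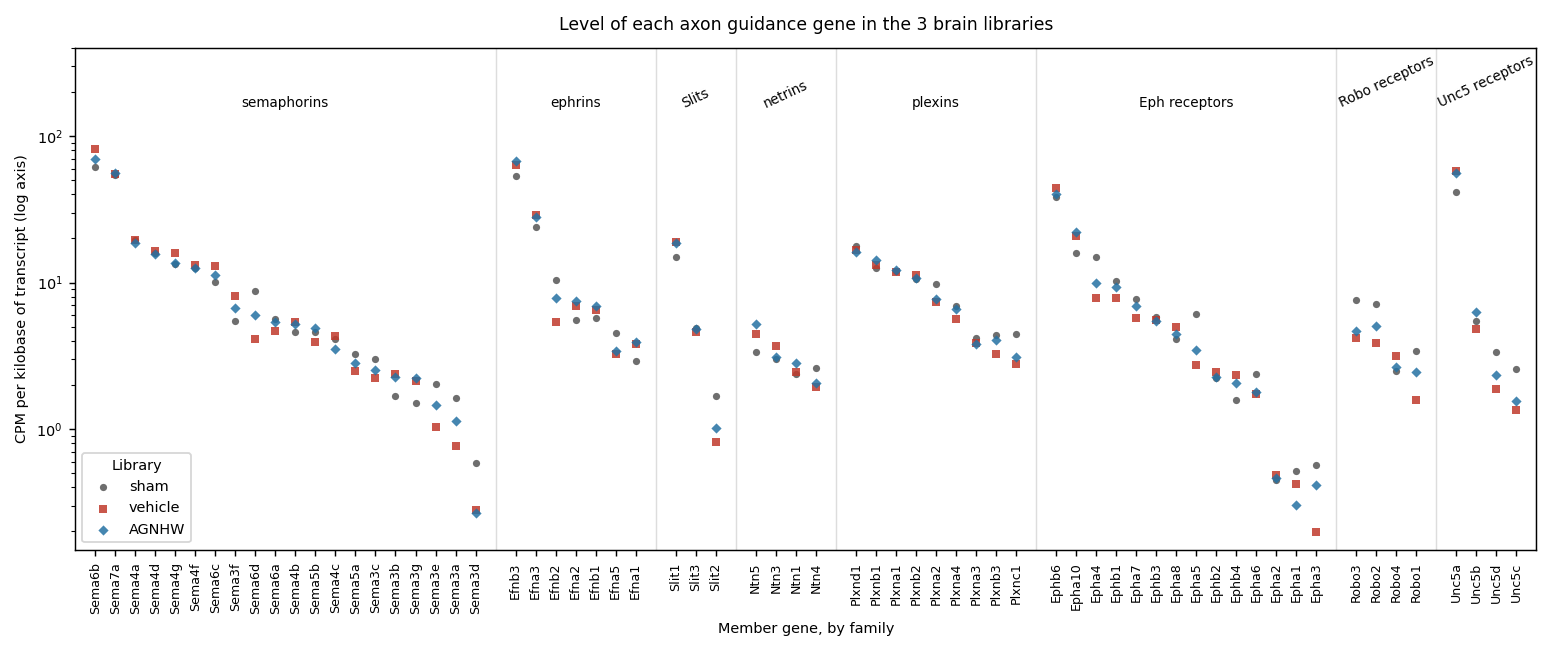
Level of each of the 65 genes in CPM per kilobase of its longest coding transcript (log axis), by family and in order of mean level, with 1 point for each of the sham, vehicle and AGNHW libraries. By mean level, Sema6b (61.7, 81.4 and 70.2) and Sema3d (0.59, 0.281 and 0.269) mark the upper and lower ends. The lowest single point is Epha3 in vehicle, at 0.197.

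Per kilobase of transcript, the most abundant genes of the set were Sema6b (mean 71.1 CPM per kilobase), Efnb3 (61.5), Sema7a (55.2), Unc5a (52.0) and Ephb6 (41.0). None of these 5 passed the size rule in any comparison. Sema3d (0.38), Epha3 (0.395), Epha1 (0.414) and Epha2 (0.466) were the least abundant, and their ratios rest on 17 to 70 counts per library. Of the 15 genes lower in vehicle, the most abundant per kilobase were Epha4 (10.9), Efnb2 (7.93) and Sema6d (6.27). As the plot of levels by family shows, they held the last places of the semaphorins (Sema3e, Sema3a and Sema3d), plexins (Plxnc1), Slits (Slit2), Unc5 receptors (Unc5d and Unc5c) and Eph receptors (Epha3). Among the Robo receptors they held the first places (Robo3 and Robo2) and the last (Robo1).

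**Figure D2:**
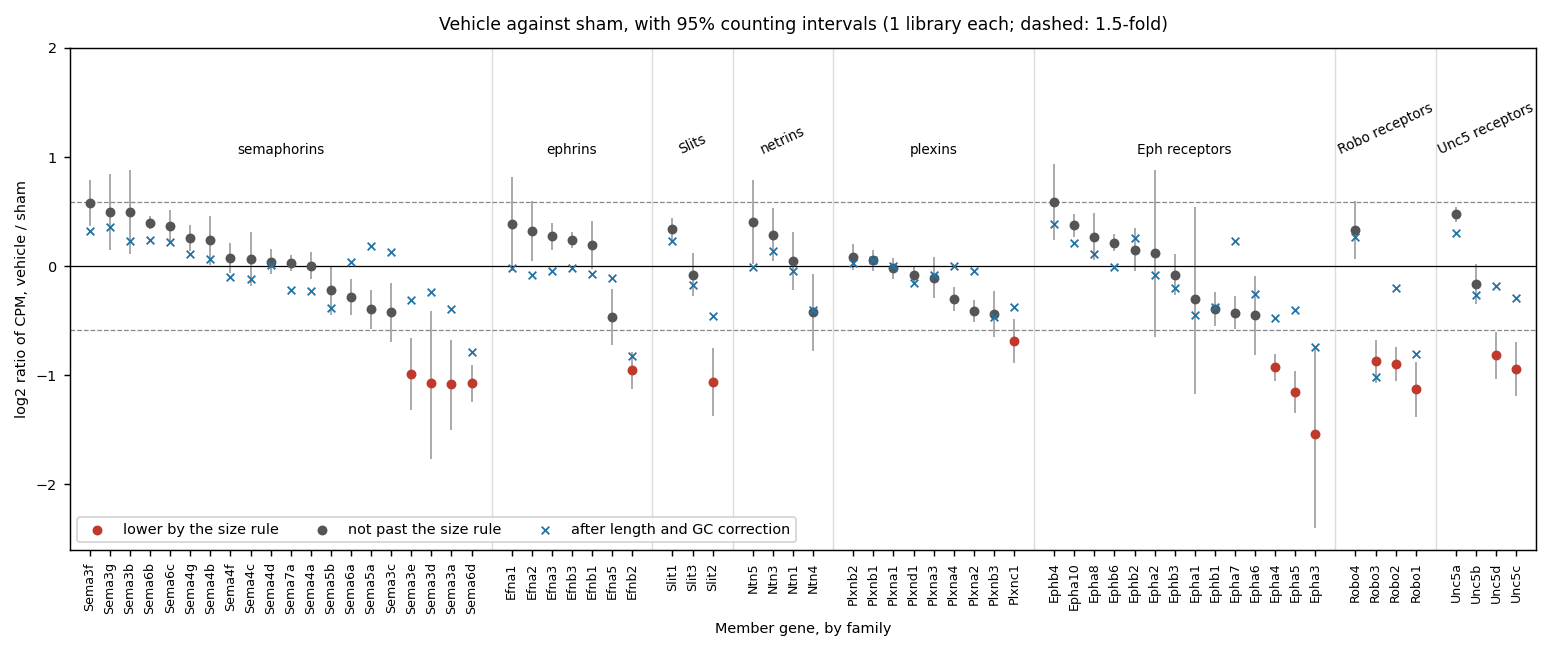
Log2 ratio of CPM of vehicle to sham for each gene by family, with 95% counting intervals and dashed lines at 1.5-fold; red points passed the size rule as lower, and crosses are the log2 ratios (prior count of 5) after correction for transcript length and GC content. Red points occur in every family other than the netrins, and 10 of the 15 moved inside the rule after correction.

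The ratio of vehicle to sham moved with the length and base composition of the transcripts. A smooth trend in transcript length and GC content, fitted over 9941 genes of at least 10 CPM, held 50.02% of the variance of the log2 ratio. The other comparisons carried such a trend too, with 40.6% for AGNHW to sham and 28.8% for AGNHW to vehicle. The 15 lower genes had a median transcript GC content of 44.3% and a median length of 6.86 kilobases, and the other 50 had 57.2% and 4.54 kilobases. They also lie in long genes, with a median genomic span of 325 kilobases against 28.0 kilobases for the other 50 and 22.5 kilobases for all measured genes. Across the 65 genes, Spearman's rank correlation of the log2 ratio of vehicle to sham was 0.77 with GC content, -0.59 with transcript length and -0.71 with genomic span. With GC content it was 0.75 for AGNHW to sham and -0.50 for AGNHW to vehicle. These values describe genes that share the same libraries.

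All measured genes were divided into 3 equal groups by transcript GC content, a split chosen after the data were seen. Of the 14 members in the GC-poor group, 10 were lower in vehicle, against 31.1% of all genes in it. In the middle group it was 4 of 11, against 9.43%. In the GC-rich group, which held 40 members, it was 1 (Robo3), against 2.03%. The medians of the log2 ratio in these groups were -0.92, -0.41 and 0.20 for the members and -0.38, 0.03 and 0.28 for all genes. The members' medians thus lay below those of all genes in each group, most in the GC-poor and middle groups. These groups are not matched for transcript length, with a median of 4.80 kilobases for the members and 3.07 for all measured genes. Over all genes the rank correlation of this ratio with transcript length was -0.48. The part of length in the difference within groups was not tested.

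With the fitted trend subtracted, 5 of the 65 genes were lower in vehicle (Sema6d, Efnb2, Epha3, Robo1 and Robo3), all among the 15 above, and 0 were higher. These 5 are 7.69% of the members, near the 7.03% of 15234 genes with a known length that were lower. Of those 15234 genes, 4.02% were higher. The corrected log2 ratios were -1.02 for Robo3, -0.83 for Efnb2, -0.81 for Robo1, -0.79 for Sema6d and -0.74 for Epha3. The same 5 passed when genomic span was added to the trend. The length and GC correction did not take out all of the dependence among the 65 genes. For vehicle to sham, the corrected log2 ratio still had a rank correlation of 0.43 with GC content, -0.16 with transcript length and -0.36 with genomic span. For AGNHW to sham these were 0.47, -0.27 and -0.35. Between AGNHW and vehicle, 0 were higher and 0 lower after correction, against 3.17% and 1.59% of genes. Between AGNHW and sham, 3 were lower (Sema3d, Epha1 and Robo3) and 0 higher, against 3.35% and 2.57%. Robo3 was thus lower in both libraries against sham, before and after the correction. Both ratios have the same sham library as base, so they are not separate evidence.

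**Figure D3:**
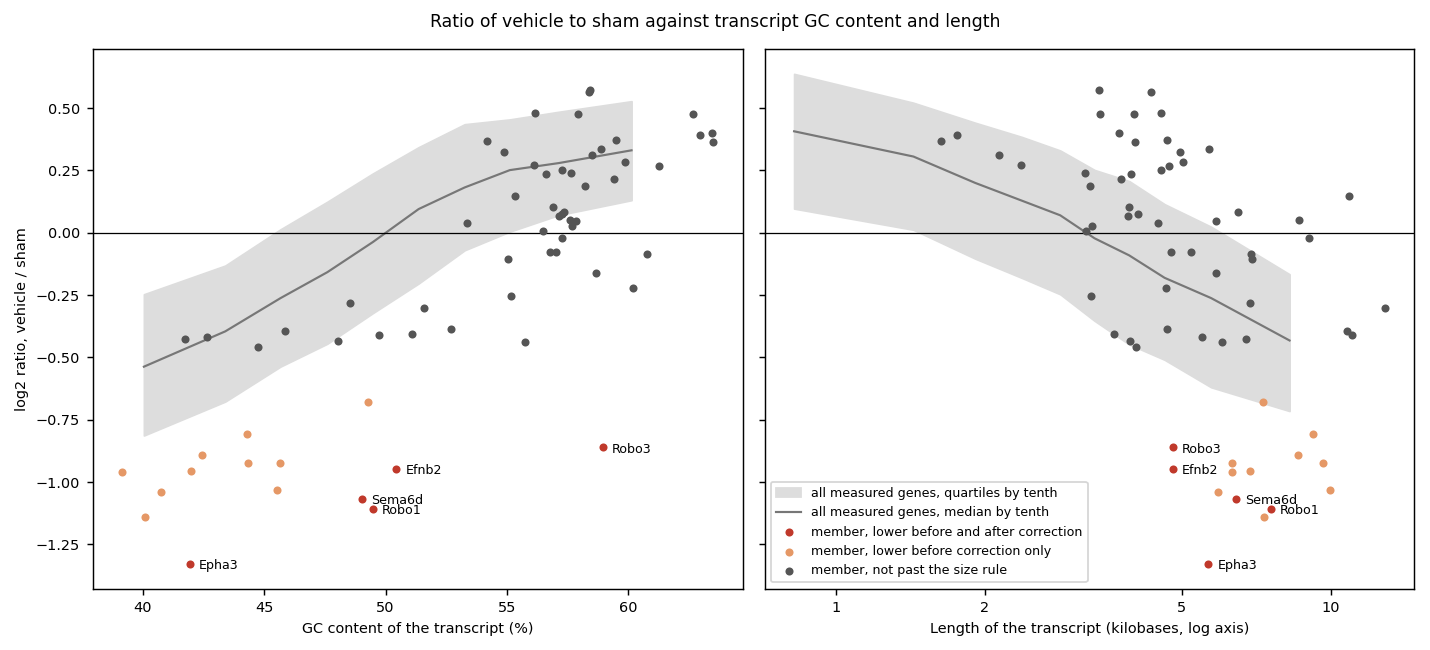
Log2 ratio of vehicle to sham against GC content (left) and length (right, log axis) of the transcript, with the 65 genes as points and the median and quartiles of all measured genes in bins as line and band. Robo3, at 59.0% GC, lies far below the band, while the genes that were lower before correction only lie between 39.2% and 49.3% GC.

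The promoters of Efnb2, Epha3, Robo1 and Robo3 are shown because these genes stayed lower after correction and each has a single start in the RefSeq table (build GRCm38.p6); Sema6d has 2. Each line gives the 250 bases before the start, 5′ to 3′ on the gene's strand, with matches in capitals to 4 motifs searched on both strands: the GC box GGGCGG, the CCAAT box CCAAT, the TATA box TATAAA and the cyclic AMP response element TGACGTCA.
Efnb2, chr8:8661243-8661492, minus strand: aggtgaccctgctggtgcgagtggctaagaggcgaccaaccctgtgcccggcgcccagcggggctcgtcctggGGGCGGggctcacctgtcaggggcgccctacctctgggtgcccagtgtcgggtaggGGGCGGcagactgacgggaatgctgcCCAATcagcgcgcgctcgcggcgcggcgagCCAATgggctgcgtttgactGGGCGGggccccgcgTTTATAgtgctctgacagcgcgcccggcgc
Epha3, chr16:63864176-63864425, minus strand: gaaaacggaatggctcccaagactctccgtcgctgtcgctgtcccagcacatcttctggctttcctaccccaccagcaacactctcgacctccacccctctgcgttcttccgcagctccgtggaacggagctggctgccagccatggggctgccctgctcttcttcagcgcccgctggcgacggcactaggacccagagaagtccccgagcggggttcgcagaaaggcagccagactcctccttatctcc
Robo1, chr16:72662899-72663148, plus strand: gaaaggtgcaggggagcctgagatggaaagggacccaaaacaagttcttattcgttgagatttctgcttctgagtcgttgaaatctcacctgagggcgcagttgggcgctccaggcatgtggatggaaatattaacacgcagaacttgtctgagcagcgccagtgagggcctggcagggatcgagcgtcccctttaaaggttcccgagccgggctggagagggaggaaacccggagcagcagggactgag
Robo3, chr9:37433176-37433425, minus strand: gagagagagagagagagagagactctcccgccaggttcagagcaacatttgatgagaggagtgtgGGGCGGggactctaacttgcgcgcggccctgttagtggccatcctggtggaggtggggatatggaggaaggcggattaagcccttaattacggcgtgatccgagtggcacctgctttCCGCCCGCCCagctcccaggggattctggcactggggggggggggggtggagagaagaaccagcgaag
The Efnb2 window held 3 GC boxes, 2 CCAAT boxes and 1 TATA box on the opposite strand, at 72.0% GC. Robo3 held 3 GC boxes, of which those on the opposite strand overlap, while the Epha3 and Robo1 windows held none of the 4 motifs. A GC box stood in 47.1% of 17 promoters of the genes lower in vehicle, in 78.2% of 55 promoters of the other members and in 32.7% of 32851 promoters of all genes. For the CCAAT box these shares were 17.6%, 29.1% and 33.8%, for the TATA box 11.8%, 0% and 12.4%, and for the cyclic AMP response element 0%, 1.82% and 1.55%. The median GC content of these promoters was 61.2%, 64.8% and 52.4% in the same order, and its part in the shares was not tested. A match is only a run of letters in this window, and 56 of the 65 genes had an entry.

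Among the 20 semaphorins, 4 were lower in vehicle than in sham, 0 higher and 16 did not pass. The class 3 semaphorins are secreted. Sema3a, which repels axons through neuropilin-1 and A-type plexins, was at 9.62 (sham), 4.54 (vehicle) and 6.74 CPM (AGNHW), with sham highest. It was 2.12-fold lower in vehicle (1.60 to 2.84), and the ratio of AGNHW to vehicle was 1.48 (1.10 to 2.02), short of the rule. Sema3e, a ligand that binds plexin D1 without a neuropilin, was at 13.9, 7.04 and 10.1 CPM in the same order and 1.98-fold lower in vehicle (1.57 to 2.50). Sema3d had 70, 27 and 31 counts, so that vehicle and AGNHW were alike and below sham. It was 2.10-fold lower in vehicle (1.33 to 3.40), and AGNHW was at 45.6% of sham with an interval of the ratio of 0.289 to 0.706.

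The other class 3 genes did not pass the rule in any comparison. Sema3f, which signals through neuropilin-2, was at 18.4, 27.5 and 22.8 CPM, highest in vehicle, and its ratio of 1.49 (1.29 to 1.73) stopped just short of it. Sema3b and Sema3g both had a ratio of vehicle to sham of 1.41 (1.08 to 1.84 and 1.11 to 1.80). Sema3c was at 0.745 (0.617 to 0.896). Within this class, the low-GC transcripts (Sema3a, Sema3c, Sema3d and Sema3e, 39.2% to 42.7% GC) had ratios below 1 and the GC-rich ones (Sema3b, Sema3f and Sema3g, 56.2% to 58.4%) ratios above 1. After correction the median log2 ratio of the 7 genes was 0.13.

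Membrane-bound semaphorins were the most abundant of the family. Sema6d, a transmembrane ligand of A-type plexins, was at 56.1 (sham), 26.6 (vehicle) and 38.5 CPM (AGNHW). It was 2.11-fold lower in vehicle (1.88 to 2.37), and AGNHW lay between the other libraries with a ratio to vehicle of 1.45 (1.28 to 1.64). Its relative Sema6b went the other way without passing, at 231, 304 and 262 CPM and a ratio of vehicle to sham of 1.32 (1.26 to 1.37). Sema6c, also transmembrane, was at 1.29 (1.17 to 1.43), and Sema6a at 0.822 (0.731 to 0.923). Of the 6 class 4 genes, which include Sema4d, a ligand of plexin B1, 0 passed in any comparison, and their log2 ratios of vehicle to sham ran from 0.01 to 0.25. Sema7a, which a lipid anchor holds to the membrane, was nearly level at 179, 182 and 185 CPM.

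Of the 7 ephrins, 1 was lower in vehicle. Efnb2, a transmembrane ephrin of neurons and of arterial endothelium, was at 50.2 (sham), 25.9 (vehicle) and 37.9 CPM (AGNHW). It was 1.94-fold lower in vehicle (1.72 to 2.19), AGNHW again lay between, and the ratio of AGNHW to vehicle was 1.46 (1.29 to 1.66), short of the rule. Efnb3, the most abundant ephrin per kilobase, had 170, 201 and 217 CPM and did not pass, with a ratio of AGNHW to sham of 1.28 (1.22 to 1.34). Efna3, held to the membrane by a lipid anchor like all A-type ephrins, was at 56.6, 68.4 and 65.8 CPM. Efna5, the only A-type ephrin counted here with a ratio of vehicle to sham below 1, was at 0.724 (0.605 to 0.864). The exons of an opposite-strand gene cover 14.6% of those of Efna3, and with the strand setting unknown its counts are uncertain to that extent.

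Of the 3 Slits, which repel axons through Robo receptors, Slit2 was lower in vehicle and the others did not pass. Slit2 was at 16.8 (sham), 8.09 (vehicle) and 10.1 CPM (AGNHW), highest in sham. It was 2.08-fold lower in vehicle (1.69 to 2.59), and AGNHW was at 60.1% of sham with an interval of the ratio of 0.499 to 0.723. Slit1, the most abundant Slit per kilobase, was at 84.8, 107 and 105 CPM, with a ratio of vehicle to sham of 1.26 (1.18 to 1.35). Slit3 had ratios of 0.947 (0.824 to 1.09) and 1.05 (0.917 to 1.21) for vehicle to sham and AGNHW to vehicle.

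The 4 netrins had no member past the rule between vehicle and sham or between AGNHW and vehicle. Ntn1, the netrin that attracts axons through Dcc and repels them through Unc5 receptors, was at 13.9, 14.4 and 16.6 CPM in sham, vehicle and AGNHW. Ntn4, a netrin of basement membranes, had a ratio of vehicle to sham of 0.746 (0.582 to 0.953). Ntn5 was at 5.90, 7.82 and 9.20 CPM, highest in AGNHW, and 1.56-fold higher in AGNHW than in sham (1.22 to 2.0). Exons of Sec1 on the opposite strand cover 23.4% of the Ntn5 exons, so this ratio is uncertain. Ntn3 was at 15.3, 18.6 and 15.6 CPM.

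The receptors had a median log2 ratio of vehicle to sham of -0.25, and the ligands of 0.06; after correction these medians were -0.15 and -0.04, so that of the ligands turned sign. Among the 9 plexins, 1 was lower and 8 did not pass. Plxnc1, the receptor for Sema7a, was at 32.6 (sham), 20.3 (vehicle) and 22.7 CPM (AGNHW), with sham above both. It was 1.61-fold lower in vehicle (1.40 to 1.85), the smallest such fold of the 15 genes. Plxnd1, the receptor for Sema3e and the most abundant plexin per kilobase, was at 123, 116 and 112 CPM, and Plxnb1, the receptor for Sema4d, at 110, 114 and 124 CPM. Plxna2 and Plxna4 had ratios of vehicle to sham of 0.752 (0.701 to 0.808) and 0.811 (0.751 to 0.875); after correction their log2 ratios were -0.04 and -0.00. For Plxna1, with a ratio of 0.985 (0.923 to 1.05), exons of an opposite-strand gene cover 10.7% of its own.

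Of the 14 Eph receptors, 3 were lower in vehicle, all of the A class. Epha4, which binds ephrins of both classes and limits axon growth, was at 94.1 (sham), 49.4 (vehicle) and 62.8 CPM (AGNHW). It was 1.90-fold lower in vehicle (1.75 to 2.07), and AGNHW was at 66.7% of sham, just short of the rule. Epha5, a receptor for A-type ephrins, was at 44.7, 20.1 and 25.5 CPM, lower in vehicle by 2.22-fold (1.95 to 2.54) and at 57.0% of sham in AGNHW, with an interval of that ratio of 0.508 to 0.639. Epha3, also a receptor for A-type ephrins, had 61, 17 and 43 counts. It was 2.90-fold lower in vehicle (1.67 to 5.30), and AGNHW was 2.11-fold higher than vehicle (1.18 to 3.94), which left AGNHW against sham at 0.726 (0.480 to 1.09). With so few counts the interval of Epha3 spans more than that of any other of the 15 genes.

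The other Eph receptors did not pass the rule between any pair of libraries. Ephb6 and Epha10, both without kinase activity, were the most abundant per kilobase, at 144, 167 and 152 CPM and at 74.8, 97.0 and 103 CPM. Ephb4, the receptor for Efnb2 on venous endothelium, was at 6.80, 10.2 and 8.98 CPM, with a ratio of vehicle to sham of 1.5 (1.18 to 1.91) that before rounding lay just under the limit. Ephb1 and Epha7 had ratios of vehicle to sham of 0.763 (0.685 to 0.849) and 0.744 (0.670 to 0.825). Epha1 had 32, 21 and 18 counts and Epha2 33, 29 and 33, so that differences of 1.5-fold were not detectable at this depth. Epha1 passed as lower in AGNHW against sham only after the correction, with a log2 ratio of -0.75. Before it the ratio was 0.580 (0.306 to 1.06). The correction shifts this interval without adding the error of the trend.

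The Robo receptors had the lowest median log2 ratio of vehicle to sham of the 8 families, -0.88, with 3 of 4 lower; 2 of these remained lower after correction. Robo1, a Slit receptor, was at 26.0 (sham), 11.9 (vehicle) and 18.5 CPM (AGNHW). It was 2.18-fold lower in vehicle (1.84 to 2.60) and 1.56-fold higher in AGNHW than in vehicle (1.29 to 1.87), which did not pass after correction. Robo2, also a Slit receptor, was at 61.6, 33.1 and 43.5 CPM and 1.86-fold lower in vehicle (1.68 to 2.07), and its log2 ratio moved from -0.89 to -0.20 with the correction. Robo3, which lets commissural axons cross the midline, was at 36.7, 20.1 and 22.2 CPM, with vehicle and AGNHW close to each other and both below sham. It was 1.83-fold lower in vehicle (1.60 to 2.10), at 60.6% of sham in AGNHW, and its ratio of AGNHW to vehicle was 1.11 (0.953 to 1.29).

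Robo4, the Robo of endothelial cells, did not share this, at 12.4, 15.6 and 13.1 CPM and a ratio of vehicle to sham of 1.26 (1.05 to 1.51). Summed over the 4 genes, Robo transcripts were at 137 (sham), 80.6 (vehicle) and 97.4 CPM (AGNHW). The Slits summed to 127, 139 and 141 CPM, most of it Slit1. The sums of these ligands and receptors were thus lowest in different libraries, without correction for transcript length and GC content. After correction the median log2 ratio of vehicle to sham was -0.17 for the Slits and -0.50 for the Robo receptors.

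Of the 4 Unc5 receptors, 2 were lower in vehicle. Unc5c, a repulsive netrin receptor, was at 25 (sham), 13 (vehicle) and 14.9 CPM (AGNHW), 1.92-fold lower in vehicle (1.62 to 2.28) and at 59.6% of sham in AGNHW, with an interval of that ratio of 0.512 to 0.694. Unc5d, which also binds Flrt2, was at 30.7, 17.4 and 21.5 CPM and 1.76-fold lower in vehicle (1.52 to 2.05). Both lost the call after correction, with log2 ratios of -0.30 and -0.18. Unc5a, the most abundant of the family per kilobase, was highest in vehicle at 167, 232 and 224 CPM, with a ratio of 1.39 (1.33 to 1.46). Unc5b was at 31.8, 28.4 and 37.2 CPM, and its ratio of AGNHW to vehicle of 1.31 (1.16 to 1.48) did not pass.

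**Figure D4:**
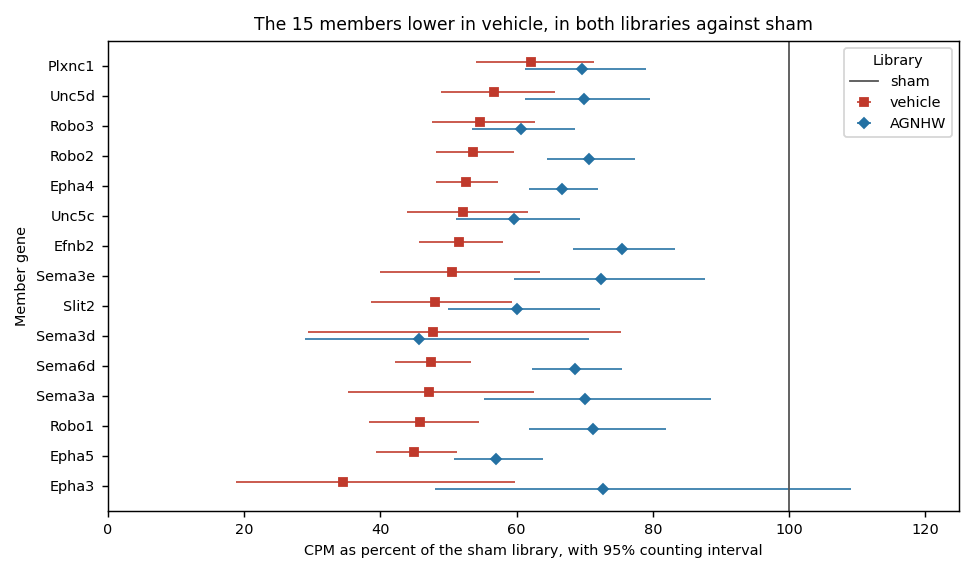
CPM in vehicle and AGNHW as percent of the sham library for the 15 genes lower in vehicle, with 95% counting intervals and a line at the sham level. Vehicle ranged from 34.5% (Epha3) to 62.2% (Plxnc1) and AGNHW from 45.6% (Sema3d) to 75.5% (Efnb2).

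Against sham, the AGNHW library was below 100% for each of the 15 genes in the plot of percent of sham. It was highest for Efnb2 (75.5%), Epha3 (72.6%), Sema3e (72.4%) and Robo1 (71.2%), and lowest for Sema3d (45.6%), Epha5 (57.0%), Unc5c (59.6%) and Slit2 (60.1%). Since the 15 were picked by a ratio with sham as its base, and vehicle is the base of the ratio of AGNHW to vehicle, these levels are given as a description only. The levels are not corrected for transcript length and GC content.

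Co-receptors, other ligands and signal transducers of the pathway were compared in the same way. Of 85 further genes, all counted and measured, 16 were lower in vehicle than in sham, 1 was higher, and the median log2 ratio was -0.16, where 14.2% and 8.66% of all measured genes were lower and higher. The correction left 3 lower and 0 higher and a median of -0.04, below the corrected shares of 7.03% and 4.02% of all genes. By role, 7 of 23 co-receptors and other receptors, 0 of 8 other ligands and 9 of 54 signal transducers were lower. Trpc5, a calcium-permeable channel, had 59, 14 and 15 counts in sham, vehicle and AGNHW and was 3.41-fold lower in vehicle, with a ratio of 0.294 (0.151 to 0.532). Nrp1, the co-receptor of Sema3a, was at 11.1, 5.06 and 6.84 CPM with a ratio of 0.456 (0.346 to 0.595), and Rock1, a kinase that acts on the cytoskeleton, at 12.8, 5.98 and 8.43 CPM with a ratio of 0.467 (0.363 to 0.597). Rnd2, a small GTPase, was 1.69-fold higher (1.61 to 1.77) at 160, 271 and 196 CPM.

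Between AGNHW and vehicle, 2 of the 85 were higher and 1 lower, fewer than the 4.01% and 2.56% of all measured genes. Dcc, the netrin receptor for attraction, was at 11.4 (sham), 6.05 (vehicle) and 12.6 CPM (AGNHW), so that vehicle alone was low. Its ratio of AGNHW to vehicle was 2.08 (1.63 to 2.68), and it passed after correction too, with a log2 ratio of 0.75. Flrt3, a ligand of Unc5 receptors, was 1.55-fold higher in AGNHW (1.27 to 1.89) at 15, 10.2 and 15.8 CPM. It did not pass after correction, which left 1 of the 85 higher and 1 lower, against 3.17% and 1.59% of genes. Met, the receptor of hepatocyte growth factor, had 90, 59 and 36 counts and a ratio of 0.508 (0.326 to 0.782). Between AGNHW and sham, 8 of the 85 were lower and 0 higher, against 5.47% and 3.32% of all measured genes. The lowest were Trpc5, Met and Vav3, an activator of small GTPases, with ratios of 0.262 (0.138 to 0.468), 0.412 (0.272 to 0.613) and 0.571 (0.438 to 0.741). After correction 4 of the 85 were lower and 0 higher, against 3.35% and 2.57% of genes.

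Markers of other tissues and cell types differed between these libraries alongside the guidance genes. Genes of forebrain glutamatergic neurons, which check the labelled tissue, were abundant in all 3 libraries, at a summed 6045, 6998 and 6340 CPM in sham, vehicle and AGNHW, with 1 of 7 lower in vehicle. Pituitary genes summed to 4.41, 3745 and 4.60 CPM in the same order, with 6 of 6 measured genes higher in vehicle. Growth hormone (Gh) had 0 counts in sham, 39065 in vehicle and 4 in AGNHW. Red blood cell genes summed to 52.8, 163 and 65.1 CPM with 5 of 5 higher in vehicle, brainstem and monoamine neuron genes to 11.6, 31.4 and 21.6 CPM with 4 of 4 measured higher, and choroid plexus genes to 539, 962 and 653 CPM with 2 of 6 higher and 1 lower. Astrocyte markers summed to 1042, 753 and 833 CPM with 2 of 6 lower and 1 higher in vehicle, and microglial markers to 199, 138 and 157 CPM with 3 of 6 lower. Endothelial markers, of the cells that carry Robo4, Efnb2 and Ephb4, summed to 154, 136 and 163 CPM with 3 of 7 lower. Oligodendrocyte markers summed to 7057, 9238 and 8604 CPM with 1 of 6 lower and 1 higher, and markers of their precursors to 307, 296 and 325 CPM with 0 of 5 past the rule. GABAergic neuron genes summed to 815, 823 and 887 CPM with 1 of 7 higher (Pvalb) and 1 lower (Dlx6os1) in vehicle, and mural cell genes to 143, 143 and 149 CPM with 1 of 5 higher (Acta2). Meningeal fibroblast genes summed to 64.8, 66.3 and 72.3 CPM with 1 of 6 higher (Slc6a13) and 1 lower (Lum), and cerebellar neuron genes to 149, 134 and 138 CPM with 0 of 3 measured past the rule. These sums and calls are not corrected for transcript length and GC content. Of all measured genes, 14.2% were lower and 8.66% higher in vehicle. After correction 5 pituitary, 5 red blood cell and 3 brainstem and monoamine genes were higher in vehicle, and 2 endothelial genes lower. The median log2 ratio of oligodendrocyte markers went from 0.34 to 0.08, with 0 lower and 1 higher. The part of these tissues and cell types in the values of the guidance genes was not tested.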

How the data were processed

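For each of the 3 libraries the deposited values are raw counts of reads by gene symbol. The submitters' processing notes name TopHat2 2.0.12, Bowtie2 2.2.3, HTSeq 0.6.0 and the mouse build mm9, without roles; neither settings nor strandedness were stated in the sources at hand. No gene had a sum below 21 over the libraries, and family members that the table does not list were not analysed here. Groups were taken from the sample titles, 1 library each. Nothing says whether a library was 1 mouse or a pool.

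Counts were scaled with TMM (edgeR 4.0.16, R 4.3.3; factors of 1.03 for sham, 0.968 for vehicle and 1.0 for AGNHW). Ratios have 95% exact conditional binomial intervals, which cover counting error only (no molecular tags are described, so amplified copies may count as separate reads). Log2 ratios used a prior count of 5. Transcript length and GC content are those of the longest coding transcript of each symbol in GENCODE M21. Where a symbol had no coding transcript, its longest transcript was used. These properties were available for all 65 members and 17569 of 17992 symbols. They come from a later build than mm9 and were used as properties only. The trend was a cubic polynomial in log length and GC content with their product. Exon overlaps come from the same annotation, and 11 of 65 members share exon bases with another gene. Promoters are from RefSeq, with coordinates in its build.

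Counts were also simulated for vehicle against sham (15241 genes, counting error only). The genes made 2-fold higher or lower were drawn from those with a mean of at least 10 CPM, and all were recovered (100%). This recovery does not cover members below that level, such as Epha3, Sema3d, Sema3a and Ntn5. Among unchanged genes 125 passed, and 95.6% of the intervals covered the simulated ratio. This run held no length and GC trend. In a run with such a trend (15342 genes), 140 unchanged genes passed after correction. The counts were drawn with the counting error that the intervals assume, so neither run covers differences between mice. The other steps used scipy 1.17.1 under Python 3.11.15. Named with values were all members past the size rule in any comparison, the 2 most abundant per kilobase of each family, and, of the pathway list, the 3 highest and 3 lowest past the rule. Other members that are named were picked with their values in view. The members, the pathway and marker lists and the rules were chosen with earlier results of these data known. Alternatives were plain CPM, DESeq2 1.42.0 size factors, other filters, fold limits and prior counts, and the length and GC correction; genomic span was added after the data were seen.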

Additional observations from a re-analysis of the deposited data

How the results depend on the processing

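The 15 members lower in vehicle than in sham were the same 15 with plain CPM, DESeq2 size factors and no low-value filter, and 13 of them with a mean of at least 5 CPM, which removed Epha3 and Sema3d. With a fold limit of 2 they numbered 7 (4.57% of all genes were lower), and with the lower fold limit tried 24, with 11 higher (24.1% and 21.7% of all genes). With the length and GC correction, and again with genomic span added, 5 were lower. Members higher in AGNHW than in vehicle numbered 5 with plain CPM, 1 with a mean of at least 5 CPM, 1 with a fold limit of 2 (1.12% of all genes), 10 with the lower limit (11.1%), and 0 with either correction. Members higher in AGNHW than in sham numbered 0 with a fold limit of 2 (1.15% of all genes), 9 with the lower limit (9.9%) and 0 with either correction; those lower numbered 1 (1.23%), 18 (14.6%) and 3 in the same order. Over the alternatives run, the median log2 ratio of the members lay between -0.16 and -0.02 for vehicle to sham and between 0.02 and 0.13 for AGNHW to vehicle, and no member called at 1.5-fold changed sign in that comparison. Of those called between vehicle and sham only at the lower limit, the length and GC correction turned the sign of Epha7, Sema3c and Sema5a, to log2 ratios of 0.23, 0.13 and 0.18, and of Ntn5, to -0.01. The cause of these changes was not tested beyond what the settings themselves do. No paired analysis was possible because each group has 1 library. Depth limits Epha1, Epha2, Epha3 and Sema3d, which had 70 or fewer counts in each library.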
